A study of Sus scrofa with 36 samples.

Results

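The 10 chaperone genes described here were measured in the adrenal glands of growing pigs: the HSP90 proteins (HSP90AA1, HSP90AB1, HSP90B1 and TRAP1), the mitochondrial chaperonin (HSPD1 and HSPE1), the small heat shock proteins (HSPB1, HSPB8 and CRYAB) and BAG3, the co-chaperone that works with HSPB8. They were chosen by name, and their probes were found by the gene name of the array annotation or, failing that, by the RefSeq transcript that the annotation gives. The 10 genes had 75 of the 60305 probes of the array, of which 74 were among the 45348 probes of the authors' table of log2 values, and they are 10 of 10500 named genes of that table. The number of probes in the table was 9 for HSP90AA1, 7 for HSP90AB1, 11 for HSP90B1, 1 for TRAP1, 21 for HSPD1, 6 for HSPE1, 2 for HSPB1, 8 for HSPB8, 3 for CRYAB and 6 for BAG3.

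The pigs were castrated males of 3 breeds: Creole, Large White, and F1, the cross of Large White and Creole. The thermoneutral (TN) pigs were kept at 24 °C. The heat-stressed (HS) pigs had 5 days at 32 °C by the protocol of the labels and 4 or 5 days by the study's methods, while the temperature label of the same arrays reads 30 °C. Each breed and temperature had 6 pigs, with 1 array per pig, so that 18 TN pigs stood against 18 HS pigs. Slaughter of the TN animals preceded the warming of the rooms and that of the HS animals followed it, and the day of slaughter therefore cannot be told apart from the temperature. Gland tissue was ground and RNA taken from a portion of it, so that the share of cortex and medulla can differ between samples, and in such a sample fewer cells of a type and less RNA per cell cannot be told apart.

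HSP90 proteins are ATP-dependent chaperones that hold kinases, steroid receptors and many other clients in a foldable state. HSP90AA1 and HSP90AB1 are the stress-inducible and the constitutive form in the cytosol, HSP90B1 is the form of the endoplasmic reticulum and TRAP1 that of mitochondria. HSPD1 (HSP60) forms the barrel in which imported mitochondrial proteins fold, and HSPE1 (HSP10) is its lid. Small heat shock proteins need no ATP: they bind unfolding proteins through a conserved alpha-crystallin domain and pass them on, and BAG3 links HSPB8 and HSP70 so that damaged proteins can be sent to autophagy. In the adrenal cortex HSP90 is part of the resting glucocorticoid receptor, and mitochondria, where HSPD1 and HSPE1 work, hold the first and the last steps of cortisol synthesis.

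On Sscrofa11.1, the RefSeq annotation places HSPD1 (chromosome 15, 101360355 to 101373498) next to HSPE1 (chromosome 15, 101374019 to 101376146), with 520 bases between them. BAG3 lies on chromosome 14 (129510240 to 129533998), as does HSPB8 (chromosome 14, 33626125 to 33639824). TRAP1 lies on chromosome 3 (38536710 to 38595273), as does HSPB1 (chromosome 3, 10038074 to 10039441). HSP90AB1 lies on chromosome 7 (39237299 to 39250479), HSP90B1 on chromosome 5 (80511513 to 80531016) and CRYAB on chromosome 9 (39638505 to 39643530). HSP90AA1 was on a scaffold that has no chromosome.

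All probes were 60 bases long, and a few of them show what the array reads. The cytosolic HSP90 forms are close relatives, and the following pair, which overlaps by 49 bases, shows how far their probes can be told apart. Capitals mark the 12 positions that differ in the overlap, and 37 bases are the same.
HSP90AA1 probe A_72_P174931: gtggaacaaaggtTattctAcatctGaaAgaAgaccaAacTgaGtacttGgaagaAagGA
HSP90AB1 probe A_72_P424164: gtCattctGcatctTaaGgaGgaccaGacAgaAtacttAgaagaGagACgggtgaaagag
Over all 75 probes, 0 pairs from different member genes shared an unbroken run of 15 or more bases.

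The small heat shock proteins share the alpha-crystallin domain, and the next pair lies in it. The best ungapped overlap is 46 bases long with 13 differences, in capitals, and 33 bases that are the same. The second probe, O6250, carries the CRYAB name in the array annotation. Its sequence was not compared with that of CRYAA, another small heat shock protein gene, which had no matched probe.
HSPB1 probe A_72_P679687: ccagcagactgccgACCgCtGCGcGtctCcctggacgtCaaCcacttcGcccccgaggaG
CRYAB probe O6250: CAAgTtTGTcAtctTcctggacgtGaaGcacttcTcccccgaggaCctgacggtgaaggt

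The single TRAP1 probe of the table, on which the breed result for that gene rests, and the BAG3 probe with the largest breed difference of that gene, which lies in the sequence of its BAG domain, are given next.
TRAP1 probe A_72_P063446: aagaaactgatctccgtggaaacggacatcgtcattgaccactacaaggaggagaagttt
BAG3 probe A_72_P577688: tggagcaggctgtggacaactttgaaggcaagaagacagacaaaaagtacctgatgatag

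A pair of HSPE1 probes shares 25 of 26 aligned bases and differs by A11G, counted from 1 at the 5′ end of the first probe (in capitals). They are shown because the first gave values unlike those of the other HSPE1 probes. The bases of O8477 after position 26 lie outside this overlap and were not compared with the HSPE1 transcript.
HSPE1 probe O8477: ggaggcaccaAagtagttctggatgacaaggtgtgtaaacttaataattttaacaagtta
HSPE1 probe A_72_P752325: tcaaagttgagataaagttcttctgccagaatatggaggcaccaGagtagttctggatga

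Some probes repeat one sequence, and the difference between such copies on an array holds the error of both readings. The following HSP90AA1 sequence is spotted under both the names O8902 and A_72_P525187.
HSP90AA1 probe O8902: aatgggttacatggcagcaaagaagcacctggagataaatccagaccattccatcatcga
Over the 36 arrays the difference between these copies was 0.23 on average with an SD of 0.09 on the log2 scale, while each varied among the pigs with an SD of 0.18 and 0.19, and the copies correlated at an r of 0.88 as a description. For HSP90B1, where A_72_P232707 has a copy under another name, the difference was 0.06 with an SD of 0.06, against an SD among the pigs of 0.11 and 0.12 and an r of 0.87. Probe O14652 of HSP90AB1 shares a run of 30 bases with the reverse complement of another HSP90AB1 probe, and O7995 of HSP90B1 one of 39 bases with that of another HSP90B1 probe. These reversed probes had mean log2 values of 6.54 and 6.56.

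All 74 probes were well above background on each of the 36 arrays, and 0 were saturated. Arrays had 42436 to 48060 probes that stood well above background in all, and any 2 arrays correlated with an r of 0.982 to 0.996 over all probes. The arrays filled 5 slides, each with as many TN as HS pigs. The gland was checked by marker genes: the summed log2 level of the steroidogenic cortex list was 19.69 to 20.07 and that of the chromaffin cell list 18.96 to 19.59. Other cell types were also read, at 14.38 to 15.42 for skeletal muscle, 15.74 to 16.77 for smooth muscle and 11.66 to 12.58 for lymphocytes. All matched genes of these lists were well above background on every array, except MYH2 of skeletal muscle, MYH11 of smooth muscle and the lymphocyte genes CD2, CD79B and MS4A1. By the study's methods the 12 pigs of a breed came as 3 blocks of 4 littermates and were penned in groups of 3. The litter, block and pen of each array are not given in the sources used here, and the fits take all pigs as independent, so that p-values, above all those between breeds, may be too small.

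The first comparison asked whether chaperone levels differed between TN and HS pigs of all breeds. BAG3 was the 1 of the 10 genes that passed the test, and it fell by 0.23 on the log2 scale in the HS pigs (SE 0.06, 95% interval -0.35 to -0.12, adjusted p = 0.0372 by limma). This corresponds to a level 0.852 times that of the TN pigs. Of all 45348 probes, 0.911% passed the same FDR of 0.05, 0.501% with a lower value in HS. Of the 74 member probes, 3 passed, and all 3 were BAG3 probes. The median difference was 0.02 over the 74 probes and 0.00 over all probes, with 30 member probes lower and 44 higher in HS.

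**Figure D1:**
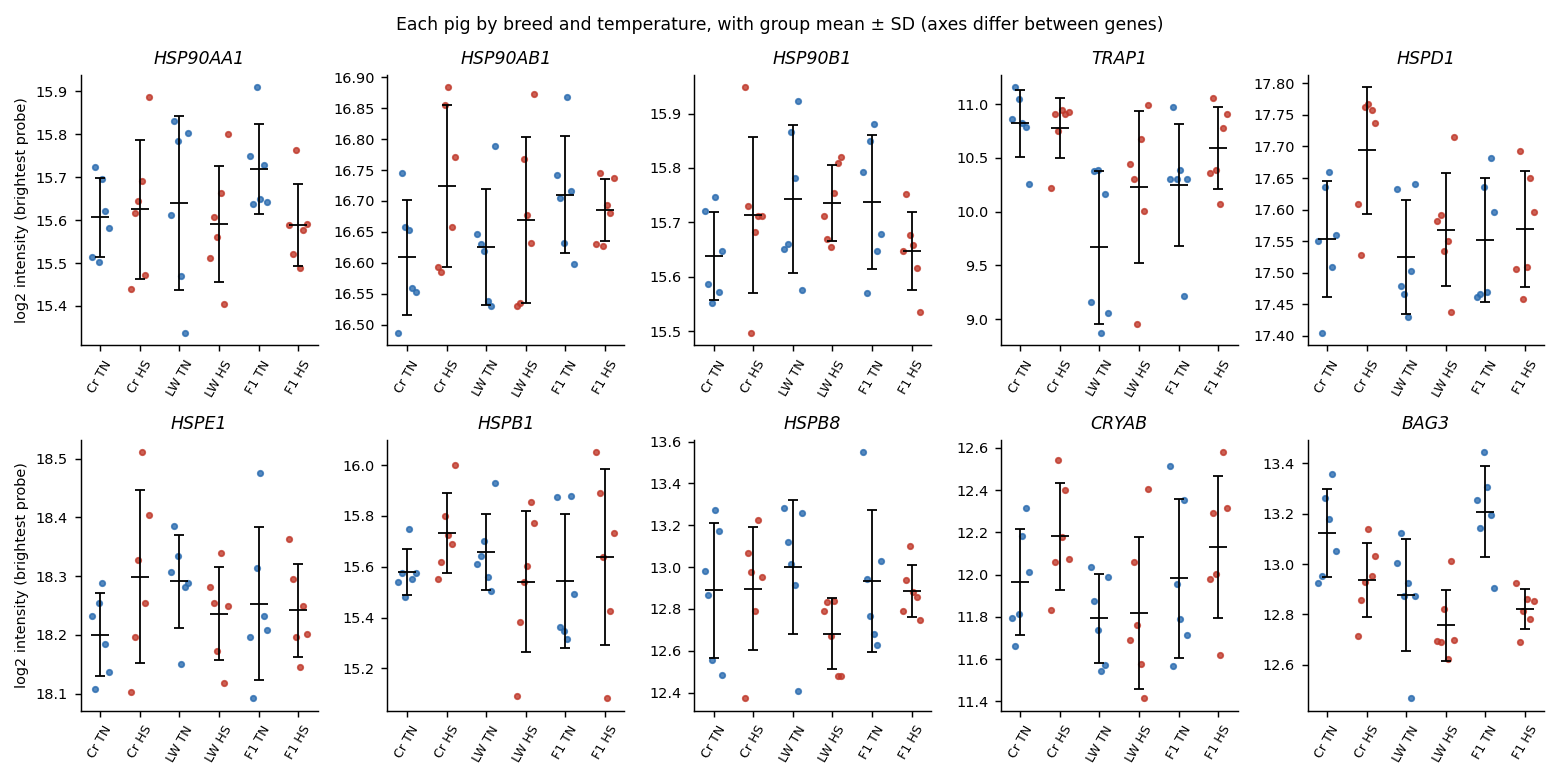
Log2 intensity of the brightest probe of each member in every pig (TN blue, HS red), with the mean and SD of the 6 pigs of each group (Cr, Creole; LW, Large White). The ranges overlap between TN and HS in each breed for all 10 genes, and BAG3 is the gene whose HS mean is lower than the TN mean in all 3 breeds by more than 0.1.

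BAG3 levels, read on its brightest probe, ranged among the TN pigs from 12.92 to 13.36 (median 13.12) in Creole, from 12.47 to 13.13 (median 12.90) in Large White and from 12.90 to 13.44 (median 13.22) in F1. Among the HS pigs they ranged from 12.71 to 13.14 (median 12.94) in Creole, from 12.62 to 13.01 (median 12.70) in Large White and from 12.69 to 12.92 (median 12.83) in F1. The ranges of TN and HS overlapped in every breed, by least in F1, and 16 of 18 HS animals had a lower level than the average TN animal of their own breed. In the order of the group means, Large White HS (12.76 ± 0.14 SD, n = 6) was lowest, followed by F1 HS (12.82 ± 0.08), Large White TN (12.88 ± 0.22), Creole HS (12.94 ± 0.15), Creole TN (13.12 ± 0.17) and F1 TN (13.21 ± 0.18). Each step between neighbours in this order was smaller than the SD of at least one of the 2 groups, except that from Creole HS to Creole TN.

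Each of the 6 BAG3 probes was lower in HS, by 0.08 to 0.26 on the log2 scale in size. Probes A_72_P335878 (-0.26, SE 0.07, adjusted p = 0.0441), A_72_P544072 (-0.23, SE 0.06, adjusted p = 0.0372) and O2952 (-0.23, SE 0.06, adjusted p = 0.0473) passed. A_72_P544072 and O2952 share 57 of their 60 bases and so read one stretch of the transcript rather than separate ones. The BAG-domain probe A_72_P577688 gave -0.19 (SE 0.06, adjusted p = 0.129), probe A_72_P490512 gave -0.23 (SE 0.06, adjusted p = 0.0663) and probe A_72_P120811 gave -0.08 (SE 0.06, adjusted p = 0.586). The mean log2 value of A_72_P120811 was 6.13, far below those of the other BAG3 probes (9.18 to 12.95). With group means removed, the brightest probe correlated with the other BAG3 probes at an r of 0.49 to 0.87 over the 36 pigs, as a description.

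Within the slides, with breed means removed, BAG3 was lower in HS on each of the 5, by 0.45, 0.23, 0.25, 0.21 and 0.13 on the log2 scale in size for slides 1 to 5. With the slide as a block the adjusted p was 0.0253. The direction held in each of the fits made, but the call did not: the adjusted p was above 0.05 in 17 of the 36 fits that left out 1 pig (0.0686 at most) and in 4 of the 5 that left out a slide (0.219 without slide 3). The 17 pigs were replicates 3 and 5 of Creole TN, 1 and 2 of Creole HS, 1 and 2 of Large White TN, 4 and 6 of Large White HS, 1 to 4 of F1 TN and 2 to 6 of F1 HS. The skeletal muscle markers, a cell type in which BAG3 and the small heat shock proteins are abundant, were higher in HS in 9 of 9 genes (median difference 0.13), with 1 past the FDR. This gene, MYH2, was not well above background on every array. The summed log2 level of the skeletal muscle markers was 14.38 to 14.97 in TN and 14.49 to 15.42 in HS. The chromaffin cell markers were lower in 6 of 6 genes (median difference -0.21), with 0 past the FDR and a summed log2 level of 19.00 to 19.59 in TN and 18.96 to 19.56 in HS. The steroidogenic cortex markers were lower in 7 of 7 genes (median difference -0.06), with 1 past the FDR (NR5A1) and a summed log2 level of 19.75 to 20.04 in TN and 19.69 to 20.07 in HS. The part of these cell types in the BAG3 value was not tested.

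**Figure D2:**
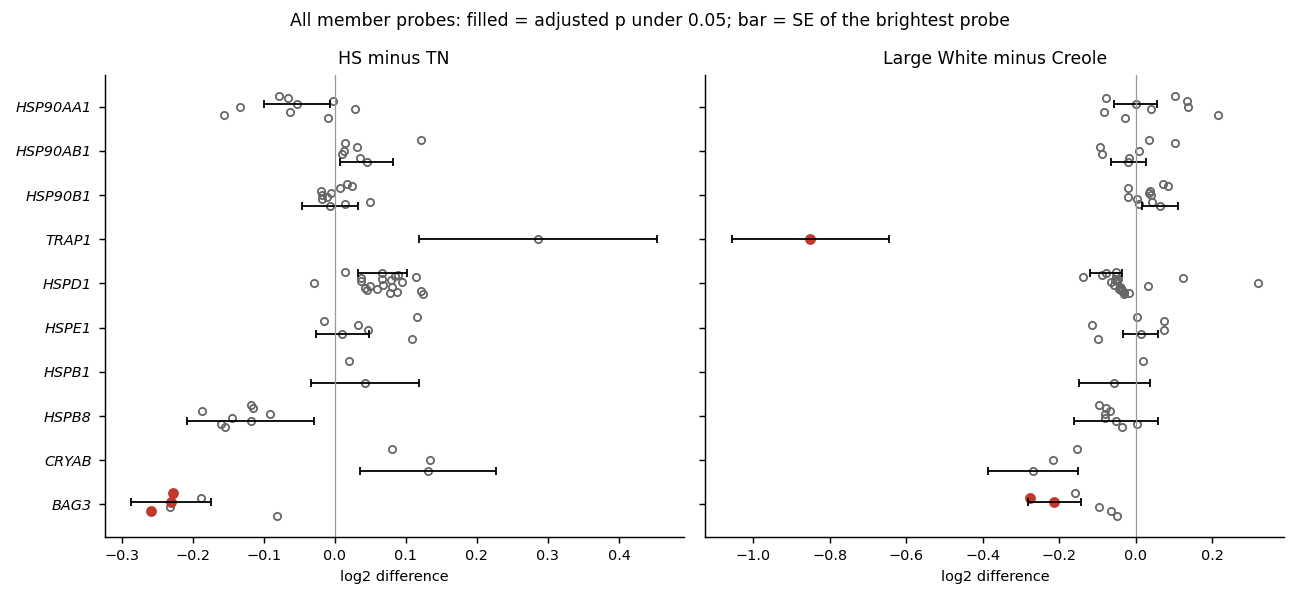
Log2 difference of every member probe between HS and TN and between Large White and Creole, with red points past an adjusted p of 0.05 and the SE of the brightest probe as a bar. In the temperature panel 3 BAG3 probes are past the threshold. In the breed panel 1 TRAP1 and 2 BAG3 probes are.

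The inducible and the constitutive HSP90 of the cytosol did not pass the test for temperature. HSP90AA1 was 15.34 to 15.91 (median 15.65) in TN and 15.40 to 15.89 (median 15.59) in HS pigs, a difference of -0.05 (SE 0.05, 95% interval -0.15 to 0.04, adjusted p = 0.677). HSP90AB1 was 16.49 to 16.87 (median 16.64) in TN and 16.53 to 16.88 (median 16.68) in HS, a difference of 0.04 (SE 0.04, 95% interval -0.03 to 0.12, adjusted p = 0.655). The ranges of the temperatures thus overlapped almost in full for both genes. By sign alone, 8 of 9 HSP90AA1 probes were lower and 7 of 7 HSP90AB1 probes higher in HS (6 of 6 without the reversed probe O14652, which had the largest value, 0.12), with 0 of these 16 past the FDR and 1 HSP90AA1 probe at an unadjusted p under 0.05. A difference between the paralogs was not tested.

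HSP90B1, which folds secreted and membrane proteins in the endoplasmic reticulum, differed by -0.01 (SE 0.04, 95% interval -0.09 to 0.07, adjusted p = 0.965), with 6 probes lower and 5 higher, 1 of these 5 the reversed probe O7995. TRAP1 gave a difference of 0.29, with the widest interval of the 10 genes (SE 0.17, 95% interval -0.06 to 0.63, adjusted p = 0.478). Its difference came largely from slide 5, where HS exceeded TN by 1.13, while on slides 1 to 4 the differences were -0.14, 0.11, -0.20 and 0.31. Without slide 5 the TRAP1 difference was 0.04.

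**Figure D3:**
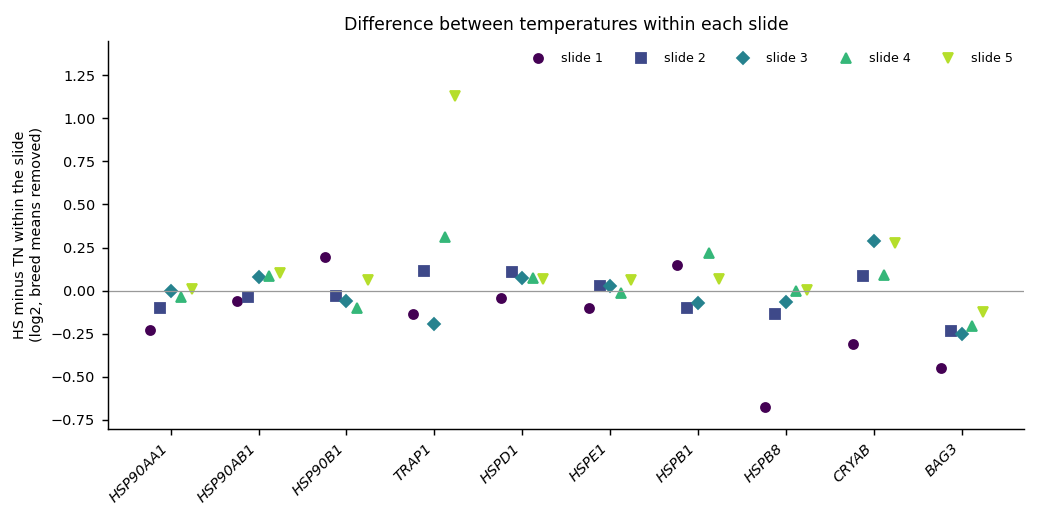
Mean of HS minus mean of TN pigs on each slide, on the log2 scale after removal of breed means (2 pigs per temperature on slide 1, 4 on each of slides 2 to 5). BAG3 is below 0 on each slide, and the TRAP1 value of slide 5 stands apart at 1.13.

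Neither gene of the mitochondrial chaperonin passed the test for temperature. HSPD1 was 17.40 to 17.68 (median 17.53) in TN and 17.44 to 17.77 (median 17.59) in HS pigs, a difference of 0.07 (SE 0.03, 95% interval -0.00 to 0.14, adjusted p = 0.396). Of its 21 probes 20 were higher in HS, 7 at an unadjusted p under 0.05, which 13.5% of all probes reached, and 0 past the FDR. These probes read one gene in the same pigs, and many overlap in sequence, so they are not separate evidence. HSPE1, the lid of the same complex, differed by 0.01 (SE 0.04, 95% interval -0.06 to 0.09, adjusted p = 0.942), with 5 of 6 probes higher. These intervals are those of the brightest probes. Other probes of both genes gave larger values, such as 0.12 for HSPD1 probe A_72_P565659 (SE 0.03, adjusted p = 0.0780) and 0.11 for HSPE1 probe A_72_P073221 (SE 0.09).

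On their brightest probes, the small heat shock proteins varied more from pig to pig than HSPD1 and HSPE1 did. HSPB1 was 15.31 to 15.93 (median 15.57) in TN and 15.08 to 16.05 (median 15.66) in HS, a difference of 0.04 (SE 0.08, 95% interval -0.11 to 0.20, adjusted p = 0.870). HSPB8, the partner of BAG3, was 12.41 to 13.55 (median 12.96) in TN and 12.37 to 13.23 (median 12.84) in HS, a difference of -0.12 (SE 0.09, 95% interval -0.30 to 0.06, adjusted p = 0.612). All 8 HSPB8 probes were lower in HS, 0 past the FDR and 1 at an unadjusted p under 0.05, and the fitted difference was -0.04 without slide 1. CRYAB, the alpha-B crystallin of muscle and lens, was 11.54 to 12.52 (median 11.84) in TN and 11.41 to 12.58 (median 12.06) in HS, a difference of 0.13 (SE 0.10, 95% interval -0.06 to 0.33, adjusted p = 0.600). The TN and HS ranges of all 3 genes overlapped over most of their length.

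Set beside these genes, the comparators of the HSP70 and HSP110 families both passed the test. HSPA8, the constitutive HSP70 of the cytosol, was 15.54 to 16.41 in TN and 14.96 to 15.98 in HS, and fell by 0.57 (SE 0.08, adjusted p = 0.000398). HSPH1, the HSP110 that reloads HSP70 with ATP, was 11.74 to 13.19 in TN and 11.64 to 12.72 in HS, and fell by 0.53 (SE 0.10, adjusted p = 0.00966). The 95% interval of BAG3, -0.35 to -0.12, did not overlap that of HSPA8, -0.73 to -0.41, but overlapped that of HSPH1, -0.74 to -0.32. The differences between BAG3 and these genes were not tested.

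Among the other genes of these pathways, 58 of 73 listed genes had a probe in the table that carried their name or RefSeq transcript, and 2 of these passed the FDR for temperature, both lower in HS, where 0.911% of all probes passed. The other 15, among them the co-chaperones STIP1, ST13 and FNIP1, were not matched to a probe by name and are not analysed here, so that the counts hold for the matched genes alone. SUGT1, an HSP90 co-chaperone also needed at the kinetochore, fell from 9.09 ± 0.14 (SD, n = 18) to 8.88 ± 0.11, by 0.20 on its only probe (SE 0.04, adjusted p = 0.00451). CCT3, a subunit of the cytosolic chaperonin that folds actin and tubulin, fell from 14.60 ± 0.09 to 14.48 ± 0.06, by 0.12 (SE 0.03, adjusted p = 0.0379). The other of its 2 probes was also lower but did not pass. The SUGT1 call was lost without slide 2 or 3 (adjusted p = 0.0547 and 0.0609). That of CCT3 was lost without any 1 slide (0.0564 to 0.222), with the 75th percentile (0.193), on the mean of its probes (0.0669) and without any 1 of 16 pigs (at most 0.0691): replicates 3 of Creole TN, 1 and 2 of Creole HS, 3 and 5 of Large White TN, 1, 3, 4 and 6 of Large White HS, 2 to 4 of F1 TN and 2, 3, 5 and 6 of F1 HS.

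Counted by list, 13 of the 15 matched HSP90 co-chaperones and 12 of the 13 matched genes of the cytosolic chaperonin and prefoldin had lower values in HS, with 1 past the FDR in each and medians of -0.05 and -0.06, against 0.00 over all probes. Of the co-chaperones 5 had an unadjusted p under 0.05, which 13.5% of all probes reached, among them CHORDC1 (-0.21, SE 0.07, adjusted p = 0.131), AHSA1, the activator of the HSP90 ATPase (-0.11, SE 0.04, adjusted p = 0.233), and PPID (-0.14, SE 0.04, adjusted p = 0.0951). The mitochondrial folding and proteolysis list went the other way in 8 of 12 genes (median 0.02), the other small heat shock proteins in 3 of 4 (median 0.05) and the BAG proteins and BAG3 partners in 5 of 6 (median 0.04), with 0 past the FDR in these 3 lists and 2, 1 and 0 genes at an unadjusted p under 0.05. Of 8 heat shock factors and their regulators, 4 were lower and 4 higher, 0 past the FDR and 4 at an unadjusted p under 0.05, including HSF1, the main activator of heat shock genes (-0.10, SE 0.05, adjusted p = 0.362).

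Whether the response to temperature differed between breeds was tested by the interaction and by fits within each breed. For the interaction 0 of the 10 genes passed (limma F test, 0 also at an unadjusted p under 0.05, which 4.22% of all probes reached, and 0% of all probes passed the FDR). Within Creole 0 members passed, where 0% of all probes did, and 1 member, HSPD1, had an unadjusted p under 0.05, as 4.79% of all probes did (0.14 higher in HS, SE 0.06, adjusted p = 0.990). Within Large White 0 members passed, where 0.011% of all probes did, and HSPB8 alone had an unadjusted p under 0.05, as 6.29% of all probes did (-0.32, SE 0.15, adjusted p = 0.786). All 6 Large White HS pigs had HSPB8 levels below the TN mean of the breed, at 12.48 to 12.84 against 12.41 to 13.28 in TN. Within F1 0 members passed, where 0% of all probes did. BAG3 alone had an unadjusted p under 0.05 there, as 12.3% of all probes did (-0.39, SE 0.09, adjusted p = 0.0903), beside -0.18 (SE 0.09) in Creole and -0.12 (SE 0.09) in Large White. The interaction for BAG3 had an adjusted p of 0.982, so that the larger value in F1 was not shown to differ from those of the parental breeds.

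The next comparison asked whether the breeds differed, with the pigs of both temperatures in one fit that has a term for temperature. Breed differences within TN or within HS alone were not tested. By limma's F test over the 3 breeds, TRAP1 was the 1 member past the FDR on its brightest probe (adjusted p = 0.0154), where 10.6% of all probes passed. This call was lost without slide 2 or 3 (adjusted p = 0.0692 and 0.207) and, just above the threshold, without slide 4. Between Large White and Creole, TRAP1 and BAG3 passed, which is 2 of 10 genes and 3 of 74 probes against 11.5% of all probes, and both genes were lower in Large White, where 5.5% of all probes passed as lower and 5.98% as higher. Read per probe, the members' count lay below the share of the whole table, and read on the brightest probe of each gene it lay above it, so that nothing about the members as a group is read from it.

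TRAP1 was lower by 0.85 in Large White than in Creole (SE 0.21, 95% interval -1.27 to -0.43, adjusted p = 0.00488), a level 0.555 times that of Creole. It ranged from 10.22 to 11.16 (median 10.88) in the 12 Creole pigs, from 9.21 to 11.06 (median 10.37) in the 12 F1 pigs and from 8.87 to 10.996 (median 10.23) in the 12 Large White pigs. The F1 mean lay near the middle of the parents, at a difference of 0.05 from it (SE 0.18, adjusted p = 0.963). In the order of the group means, Large White TN (9.67 ± 0.71 SD, n = 6) was followed by Large White HS (10.23 ± 0.71), F1 TN (10.25 ± 0.57), F1 HS (10.59 ± 0.38), Creole HS (10.78 ± 0.28) and Creole TN (10.82 ± 0.31). Each step between neighbours was smaller than the SD of both groups.

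The TRAP1 values were not spread evenly: 5 pigs lay between 8.87 and 9.21 and the other 31 between 10.005 and 11.16, a gap of 0.79 with no pig in it. The 5 low pigs were 3 of Large White TN, 1 of Large White HS and 1 of F1 TN, and 0 of the 12 Creole pigs were among them. The breed difference kept its direction and passed the FDR without any single pig (adjusted p at most 0.0113). Without slide 3, which held 2 of the low Large White pigs, it was -0.59 with an adjusted p of 0.0988. As TRAP1 has 1 probe in the table, no other probe of the gene bears on these values. A second probe of the gene was not analysed here.

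**Figure D4:**
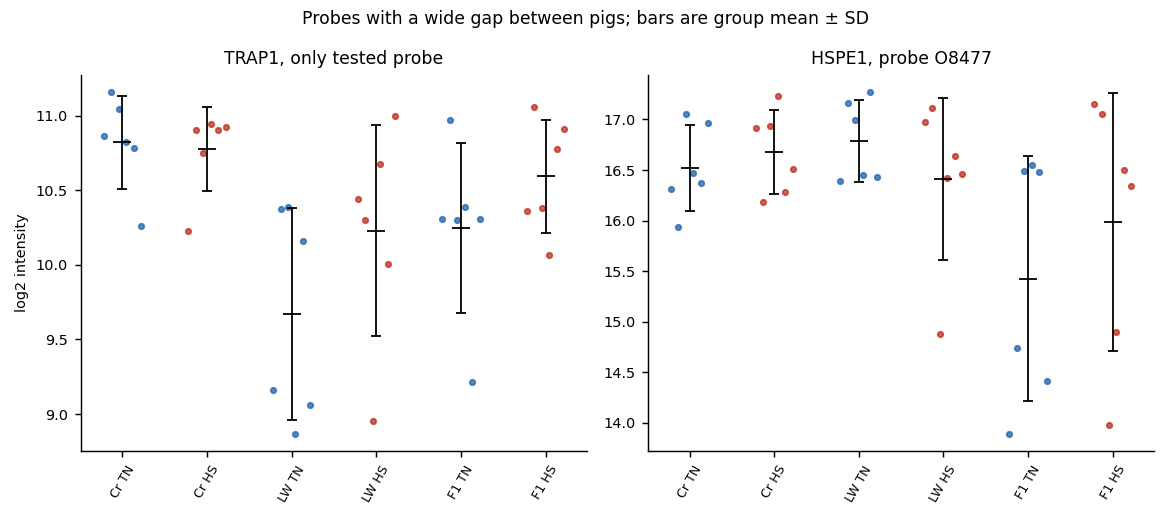
Log2 intensity of the TRAP1 probe and of HSPE1 probe O8477 in every pig by group (TN blue, HS red), with mean and SD of 6 pigs. On the TRAP1 probe 5 pigs lie at 9.21 or below and the rest at 10.005 or above. On the HSPE1 probe 6 pigs lie at 14.90 or below and the rest at 15.94 or above.

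HSPE1 probe O8477, whose sequence is given above, showed the same kind of gap. Of the 36 pigs 6 lay between 13.89 and 14.90, and the other 30 between 15.94 and 17.28. The low pigs were 3 of F1 TN, 2 of F1 HS and 1 of Large White HS, and 0 were Creole. The other 5 HSPE1 probes did not follow this probe evenly, since their correlations with it, group means removed, ran from -0.49 to 0.66. Between F1 and the mean of its parents this probe differed by -0.89 (SE 0.28, adjusted p = 0.164), and the brightest HSPE1 probe by -0.01 (SE 0.04, adjusted p = 0.967). Probe A_72_P746004 of HSPE1 passed the F test over breeds (adjusted p = 0.0428), with 0.14 in F1 over the mean of the parents (SE 0.05, adjusted p = 0.207). These HSPE1 probes are named after their values were seen, and they disagree with the brightest probe of the gene.

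BAG3 was lower by 0.21 in Large White than in Creole (SE 0.07, 95% interval -0.35 to -0.07, adjusted p = 0.0392), with 12.47 to 13.13 (median 12.85) in Large White, 12.69 to 13.44 (median 12.91) in F1 and 12.71 to 13.36 (median 12.99) in Creole. The ranges of the breeds overlapped over most of their length. All 6 probes were lower in Large White, among them the dim probe A_72_P120811 (-0.05, SE 0.07). Of the 6, 2 passed: the brightest one and the BAG-domain probe A_72_P577688 (-0.28, SE 0.08, adjusted p = 0.0137). Probe A_72_P335878, which passed for temperature, gave -0.07 for the breeds (SE 0.08, adjusted p = 0.683). The adjusted p was above 0.05, at 0.0789 or less, without any 1 of 15 pigs: replicates 3 to 5 of Creole TN, 3 to 6 of Creole HS, 3 to 6 of Large White TN and 1, 2, 4 and 6 of Large White HS. It was also above 0.05 without slide 3, 4 or 5 (0.204, 0.117 and 0.148) and with the 75th percentile of the processed signal (0.124). On the mean of the 6 probes the difference was -0.14 (adjusted p = 0.136), and over the 3 breeds the F test of BAG3 gave an adjusted p of 0.0547 on the brightest probe and 0.0179 on the BAG-domain probe, the 1 of the 6 that passed it.

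Of the adipocyte markers 4 of 6 were lower in Large White past the FDR, where 5.5% of all probes passed as lower and 5.98% as higher, and their summed log2 level was 11.74 to 12.41 there against 12.25 to 13.40 in Creole. The chromaffin cell markers were higher in Large White in 4 of 6 genes past the FDR, with a summed log2 level of 19.01 to 19.56 against 18.96 to 19.36. Of the steroidogenic cortex markers 2 were lower past the FDR, at a summed log2 level of 19.72 to 19.96 against 19.88 to 20.07. Of the other lists, the smooth muscle, endothelium and lymphocyte markers had 1 of 7 genes each past the FDR as higher, the fibroblast markers 1 of 6 as lower, the macrophage markers 1 of 7 in each direction, and the skeletal muscle and red blood cell markers 0. The part of these cell types in the TRAP1 and BAG3 values was not tested.

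The other 8 members did not pass between Large White and Creole. The nearest was CRYAB, at -0.27 (SE 0.12, 95% interval -0.51 to -0.03, adjusted p = 0.145), with 11.41 to 12.41 (median 11.75) in Large White, 11.57 to 12.58 (median 11.99) in F1 and 11.66 to 12.54 (median 12.07) in Creole, so that the ranges overlapped. HSPD1 differed by -0.08 (SE 0.04, adjusted p = 0.264). On their brightest probes HSP90AA1, HSP90AB1 and HSPE1 differed by at most 0.02 in size, with 95% intervals within -0.12 and 0.12, but other probes of these genes went further: HSP90AA1 probe A_72_P232852 gave 0.22 (SE 0.09, adjusted p = 0.108) and HSPE1 probe A_72_P746004 gave -0.12 (SE 0.06, adjusted p = 0.191). HSP90B1 differed by 0.06 (SE 0.05), HSPB1 by -0.06 (SE 0.09) and HSPB8 by -0.05 (SE 0.11). Between F1 and the mean of the parental breeds 0 of the 10 genes passed, with 0 at an unadjusted p under 0.05, where 0.415% of all probes passed the FDR. Of the 58 matched pathway genes 4 passed between Large White and Creole, 2 higher and 2 lower, where 11.5% of all probes passed. PPP5C, the phosphatase bound to HSP90, was higher in Large White than in Creole (0.13, SE 0.03, adjusted p = 0.00663), as was the cardiac small heat shock protein HSPB7 (0.74, SE 0.18, adjusted p = 0.00642). The mitochondrial disaggregase CLPB (-0.35, SE 0.08, adjusted p = 0.00187) and the mitochondrial protease HTRA2 (-0.21, SE 0.06, adjusted p = 0.0173) were lower. No single pig decided these 4 calls, but that of PPP5C was lost without slide 4 (adjusted p = 0.0724), with the 75th percentile (0.114) and on the mean of its probes (0.322), that of HSPB7 without slide 5 (0.0693) and that of HTRA2 without slide 2, 3 or 4 (0.0614, 0.0940 and 0.0985).

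The members were then compared with each other across the 36 pigs after removal of the 6 group means, in 45 pairs. The pairs had a median r of 0.19, between -0.31 and 0.59, and 36 of the 45 were positive. One pair, HSPD1 with CRYAB, passed after adjustment over the 45 pairs (Pearson's r = 0.59, permutation p = 0.00069, adjusted p = 0.0310; Spearman's rho = 0.60, permutation p = 0.0006, adjusted p = 0.0270; two-sided). Without the 2 pigs farthest from the median of HSPD1 it was 0.58 (permutation p = 0.00146, adjusted p = 0.0657), and with slide means removed as well 0.56 (permutation p = 0.00105, adjusted p = 0.0389). HSPD1 and its partner HSPE1 had an r of 0.41 and a rho of 0.47 (permutation p = 0.0252 and 0.00823, adjusted p = 0.219 for r). With slide means removed, their r was 0.53 (permutation p = 0.00173, adjusted p = 0.0389), which then passed. The genes of a pig were read on the same array and several pigs on the same slide, and this normalization makes all values of an array depend on each other.

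**Figure D5:**
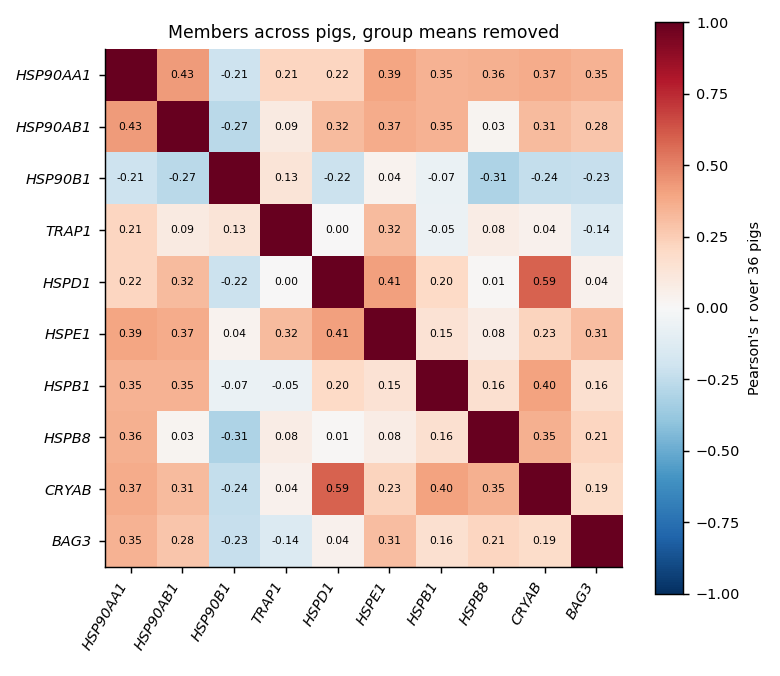
Pearson's r between the brightest probes of the members over 36 pigs, after removal of the mean of each of the 6 groups, from -1 (blue) to 1 (red). The highest value is 0.59 for HSPD1 with CRYAB, and the lowest is -0.31.

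For each member, the genes with the most similar pattern over the 36 pigs, again with group means removed, were ranked by r among 10498 other named genes, as a description. Those of BAG3 were TSPAN17 (r = 0.73), DHDDS (0.68) and NAF1 (0.67). Those of TRAP1 were BCCIP (0.70), USP39 (0.68) and RAB1A (0.64). HSP90AA1 was closest to CACYBP (0.68), DLAT (0.67) and MOB1B (0.66), HSP90AB1 to LGALS1 (0.67), PPARD (0.64) and RPL10L (0.62), and HSP90B1 to RPN1 (0.61), PDK3 (0.60) and THBS3 (0.58). HSPD1 was closest to ZNF134 (0.77), EXTL2 (0.65) and NUDT8 (0.63), and HSPE1 to CCDC110 (0.66), LAGE3 (0.64) and MTCH2 (0.62). For the small heat shock proteins these genes were ADCY4 (0.78), SLC25A13 (0.69) and INPP5J (0.68) for HSPB1, ENY2 (0.74), NUDT16 (0.71) and SLC25A36 (0.69) for HSPB8, and MYO5A (0.68), TEC (0.65) and PGD (0.65) for CRYAB. None of the 10 members was among the 3 genes most like another member.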

How the data were processed

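RNA of 36 adrenal glands was labelled with Cy3, hybridised to 1-colour Agilent arrays and read with Feature Extraction 10.10.1.1 (submitters' processing notes). The deposited table holds log2 values of 45348 probes, made by the authors from the median pixel intensity after quantile normalization, with 93 missing values (0 in member probes) and 0 columns of other samples. The deposited scanner intensity values served for the alternatives. Groups were taken from the labels. Tests used limma 3.58.1 (R 4.3.3) with temperature and breed, or 6 groups, and Benjamini-Hochberg adjustment over all probes (FDR 0.05), and were tested on simulated data. A gene is read on its brightest probe unless stated, and levels of different probes were not compared. Intervals use the residual degrees of freedom. Correlations used 100000 permutations of pigs within groups. The number of arrays limits the precision. Pen, slaughter day and parents, random effects in the study's model, were not at hand.

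The members, lists and named genes (all members, pathway genes past the FDR, HSPA8 and HSPH1, and the 3 genes most like each member) were chosen with earlier results of these data known. Markers covered cortex, chromaffin cells, skeletal and smooth muscle, adipocytes, red blood cells, endothelium, fibroblasts, macrophages and lymphocytes. Red blood cells (4 of 4 genes lower in HS), endothelium (3 of 7), fibroblasts (4 of 6), macrophages (6 of 7), lymphocytes (1 of 7) and smooth muscle (2 of 7) had 0 past the FDR for temperature, the cortex (7 of 7) had 1, and adipocytes (5 of 6) 0. Positions and transcripts are those of RefSeq on Sscrofa11.1.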

Additional observations from a re-analysis of the deposited data

Results flagged for a closer look

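Of 60 sets of 6 pigs (each of the 10 genes in each group), 3 held a pig far from the others by Dixon's test, where chance gives about 1 in 20, or 3. TRAP1 was 10.22 in Creole HS replicate 1, with the other 5 pigs of that group between 10.75 and 10.95. HSP90AA1 was 15.76 in F1 HS replicate 3, with the others between 15.49 and 15.59. HSPB1 was 15.75 in Creole TN replicate 4, with the others between 15.48 and 15.58. HSPE1 probe O8477, which was looked at after its values were seen to stand apart and is not in that count, was 14.88 in Large White HS replicate 3, with the others between 16.42 and 17.12.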

How the results depend on the processing

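The number of members past the FDR for HS against TN was 1, and 0 with the 75th percentile of the processed signal (BAG3 at -0.24, with an adjusted p just above 0.05), with no breed term (BAG3 at an adjusted p of 0.0735) and without slide 1, 2, 3 or 5. The fits without 1 pig gave 0 to 1 for HS against TN, 1 to 2 for the F test over breeds, 1 to 2 for Large White against Creole and 0 to 1 within F1 (1 without F1 TN replicate 6), and 1 to 4 pathway genes for HS against TN. For the F test over breeds the count was 1, and 2 with the slide as a block and without slide 1, and 0 without slide 2, 3 or 4. For Large White against Creole it was 2, and 1 with the 75th percentile, with the mean of all probes of a gene and without slide 4 or 5, and 0 without slide 3. The pathway genes past the FDR for temperature numbered 2, and 1 with the 75th percentile, the mean of probes and without slide 1 or 4, and 0 without slide 2 or 3. Of the 45 pairs 1 passed, 2 with slide means removed and 0 without the 2 farthest pigs. The cause of these changes was not tested. BAG3 kept a lower value in HS and in Large White in all settings, from -0.26 to -0.20 and from -0.26 to -0.14, and TRAP1 in Large White, from -0.94 to -0.59. Members not past the FDR changed sign in 36 of 825 values, each by less than 1 SE of the value as reported. No paired analysis was possible because the labels give no replicate numbers that groups share.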
